A study of Mus musculus with 24 samples.

Results

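Messenger RNA bound to astrocyte ribosomes in the mouse cerebral cortex was compared between sleep-deprived mice and mice that were awake of their own accord. All arrays labelled as the bound fraction of these 2 groups were taken, which were 6 sleep-deprived and 6 waking arrays, 12 of the 24 arrays of the series, each from 1 animal. All animals carried aldh1l1 - eGFP-L10a, a transgene in which the promoter of Aldh1l1, an astrocyte folate enzyme, drives a ribosomal protein fused to green fluorescent protein, and the series title describes them as adult heterozygotes. Pulling down the tagged ribosomes yields the bound fraction, and the supernatant, which holds the RNA left behind, mostly of neurons and other glia, is the unbound fraction.

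Sleep-deprived mice had been awake for most of the dark phase and were then kept awake with new objects for 4 h of the light phase. Waking mice were killed at about 3 to 5 am, in the dark phase, after a bout of wake longer than 1 h and after at least 70% of the preceding 6 to 7 h awake. The remaining 6 bound arrays came from sleeping mice killed at about 3 to 5 pm after at least 75% of the preceding 6 to 7 h asleep, and 6 unbound arrays were pools of 3 animals, 2 pools for each state. The clock hour at which the sleep-deprived mice were killed is not given in the sources used here. The 2 groups therefore differ in how wake was brought about, in how long it lasted and in the time of day, and these cannot be told apart. Nothing in the labels gives cages, days or litters, so the p-values measure the spread between these animals.

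Astrocytes take up glutamate and potassium around synapses, store glycogen and supply neurons with lactate and cholesterol. Wake raises noradrenaline, which acts on astrocytes through calcium and cyclic AMP, and the cyclic AMP-responsive factors CREB and CREM switch on fast-responding genes, among them the immediate early genes. Keeping a mouse awake also raises corticosterone, the ligand of the glucocorticoid receptor, a nuclear receptor that induces genes such as Fkbp5, Tsc22d3 and Klf15. The circadian clock runs in astrocytes as in other cells: CLOCK and BMAL1 bind E-boxes and drive the period and cryptochrome genes and the output gene Dbp, so that these genes follow the hour of the day.

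The bound arrays carried the labelled cell type. All 26 astrocyte markers on the list were higher in the bound than in the unbound fraction, as were 37.6% of all genes, 19 of 22 measured neuronal markers were lower, as were 25.7% of all genes, and no astrocyte marker passed the test between sleep deprivation and waking in either direction. Aldh1l1 itself ranged from 10.80 to 11.27 (median 11.11) in the sleep-deprived arrays and from 10.57 to 11.10 (median 10.79) in the waking arrays, with a log2 difference of 0.26 and an adjusted p of 0.335. Rpl10a, the ribosomal protein of the tag, stood at -0.08 (adjusted p = 0.94). Animals numbered 1 to 3 stood apart from animals 4 to 6 in every state, along a first principal component that held 34.2% of the variance of the bound arrays. The same numbers were pooled together in the unbound fraction, but the labels do not say what else the animals of a set shared. Differences are therefore also given within each set. Exactly equal values between arrays occurred in all 48 pairs of arrays of 1 group and in none of the 228 pairs from different groups, and whether the groups were normalized apart from each other is not given in the sources used here. A shift between groups made by such a step cannot be told apart from a difference between the animals. It would also not enter the spread within groups that the p-values measure. The array medians overlapped, at 5.82 to 5.88 in the sleep-deprived and 5.80 to 5.86 in the waking arrays. Medians over whole arrays cannot show whether single probe sets were shifted between the groups, and this was not tested.

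Of 18193 genes, 759 (4.17%) were higher and 485 (2.67%) were lower after sleep deprivation than in waking at an adjusted p under 0.05 in limma with Benjamini-Hochberg adjustment. Every one of these genes differed in the same direction in animals 1 to 3 and in animals 4 to 6. The genes were called on these same animals, so this agreement largely follows from the calls and is no separate support. The sleep-deprived and waking arrays did not overlap for 547 genes (3.01%) that were above and 334 (1.84%) that were below. The median difference over all genes was 0.02 on the log2 scale. Most of the calls lay among dim genes: 76.9% of the higher and 83.7% of the lower genes had a mean level under 5.80, the median of all probe sets in the bound arrays. Above that level, 175 of 11604 genes (1.51%) were higher and 79 (0.681%) were lower, whereas below it 584 of 6589 (8.86%) were higher and 406 (6.16%) were lower. Changes were small for most genes, with a median size of 0.67 on the log2 scale for the brighter genes that were higher and 0.67 for those that were lower. Only 29 of the brighter genes were higher and 16 lower by more than 1 log2 unit.

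**Figure D1:**
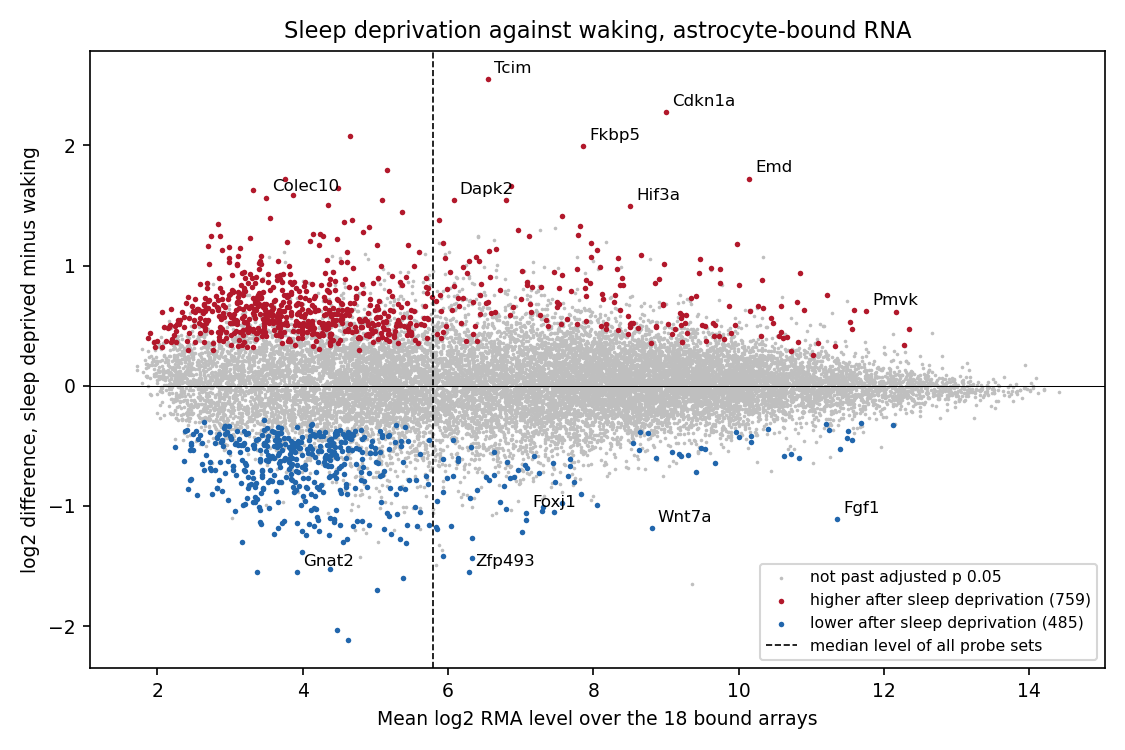
Each point is 1 gene, with its mean log2 RMA level over the 18 bound arrays on the horizontal axis and the log2 difference, sleep deprived minus waking, on the vertical axis. Red points are the 759 genes higher and blue points the 485 genes lower after sleep deprivation; the dashed line is the median level of 5.80, and most coloured points lie to its left.

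When the set of 3 animals entered the model as a block, 1329 genes (7.31%) were higher and 835 (4.59%) lower, and these included all 1244 genes (6.84%) called without it. With the animal number as a block, 1186 (6.52%) were higher and 727 (4%) lower. Leaving out the dim genes before the adjustment went the other way and left 60 higher and 16 lower genes, all 76 of them among the calls above. A test against a change of 1.5-fold left 6 higher genes, Emd, Colec10, 1810034E14Rik, Ccdc175, Prol1 and AI839979, and 4 lower genes, Mmp3, Gm15423, Gnat2 and 5031434O11Rik. Of these 10, only Emd lay above the median level.

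Genes that glucocorticoids are known to induce included Cdkn1a and Fkbp5, with differences of 2.28 and 1.99 on the log2 scale. Of 28 measured genes on the glucocorticoid list, 6 were higher (4.17% of all genes were), none was lower, and 25 had a difference above 0. Of the 28, 27 lay at or above the median level, where 1.51% of genes were higher. The median difference was 0.48 against 0.02 for all genes. The 6 were Tcim, Cdkn1a, Fkbp5, Hif3a, Klf15 and Nfkbia. The sleep-deprived and waking arrays did not overlap in 5 list members, against 3.01% of all genes: Cdkn1a, Hif3a, Klf15, Nfkbia and Klf9. Tcim and Hif3a are on the list because earlier results of these data showed them high after sleep deprivation, so they do not bear on its direction. Without these 2 members, 4 of 26 were higher, 23 had a difference above 0 and the median difference was 0.42. The other members were also listed with earlier results of these data known, so the trimmed counts are not independent of the data.

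Fkbp5, a co-chaperone that binds the glucocorticoid receptor complex and limits its signalling, ranged from 7.78 to 10.96 (median 9.81) in the sleep-deprived arrays and from 7.05 to 8.45 (median 7.40) in the waking arrays. The ranges overlapped, since the lowest sleep-deprived array lay below the highest waking array, and the difference was 1.99 ± 0.45 (SE), 3.99-fold, with an adjusted p of 0.0101. Cdkn1a, the gene of p21, a brake on the cell cycle, ranged from 9.18 to 12.09 (median 10.99) in the sleep-deprived arrays and from 8.14 to 8.80 (median 8.39) in the waking arrays. Here every sleep-deprived array lay above every waking array, and the difference was 2.28 ± 0.43 (SE), 4.85-fold, with an adjusted p of 0.00272. Tcim, a small regulator of transcription, ranged from 7.09 to 9.84 (median 9.09) in the sleep-deprived arrays and from 4.98 to 7.93 (median 5.78) in the waking arrays. Its difference of 2.55 ± 0.60 (SE), 5.88-fold, was the largest of any gene called (adjusted p = 0.0132), although its highest waking array reached into the sleep-deprived range.

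Hif3a, a hypoxia-inducible factor that restrains the other members of its family, ranged from 9.18 to 10.61 (median 9.97) in the sleep-deprived arrays and from 7.61 to 9.16 (median 8.45) in the waking arrays, without overlap, a difference of 1.496 ± 0.30 (SE) with an adjusted p of 0.00509. With the probe sets of Hif3a averaged, its adjusted p was 0.157. Klf15, a Krüppel-like transcription factor of amino acid and lipid metabolism, was a bright gene in both groups and ranged from 10.76 to 11.34 (median 11.14) in the sleep-deprived arrays and from 10.07 to 10.57 (median 10.48) in the waking arrays. The groups did not overlap, and the smaller difference of 0.67 ± 0.16 (SE), 1.59-fold, had an adjusted p of 0.0126. Nfkbia, the inhibitor that holds NF-kappa-B in the cytoplasm, ranged from 11.17 to 11.56 (median 11.50) in the sleep-deprived arrays and from 10.03 to 11.13 (median 10.94) in the waking arrays, again without overlap, a difference of 0.63 ± 0.17 (SE) (adjusted p = 0.0258). The call on Nfkbia was lost in 4 of 12 fits that left out 1 array (waking animal 1 or sleep-deprived animal 1, 3 or 5), with an adjusted p up to 0.0561.

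The size of these differences was not even across the animals. In animals 1 to 3 the log2 differences were 4.23 for Tcim, 3.27 for Cdkn1a and 3.22 for Fkbp5, and in animals 4 to 6 they were 0.88, 1.29 and 0.77. The test of that difference between the sets did not pass for any of the 3 genes, with adjusted p of 0.557, 0.208 and 0.32. For Hif3a the sets were closer, at 1.68 and 1.31, as they were for Klf15, at 0.76 and 0.58. With animals 4 to 6 alone, none of the 6 genes passed the threshold.

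**Figure D2:**
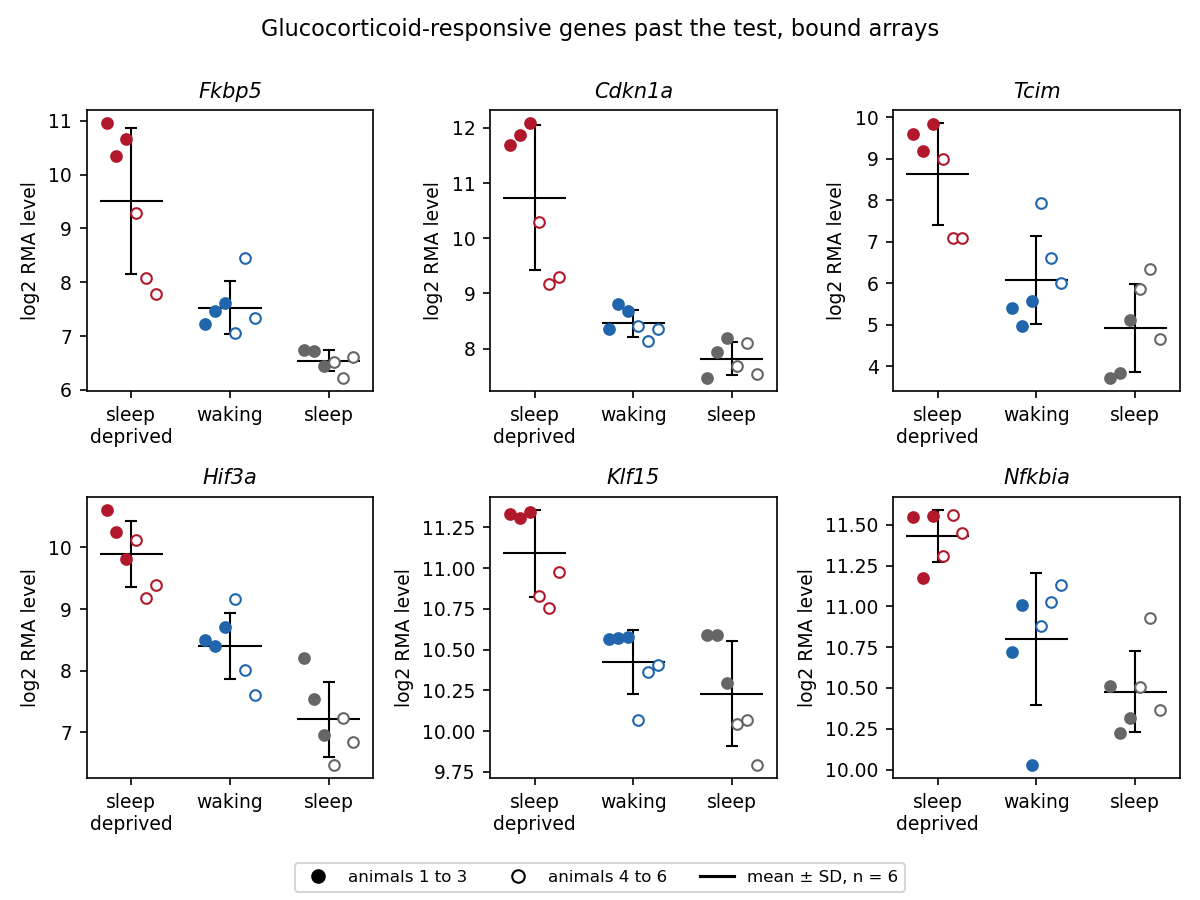
Log2 RMA levels of the 6 glucocorticoid-list genes past the test, by state, with 1 point per animal (filled for animals 1 to 3, open for animals 4 to 6) and the mean ± SD over 6 animals. Sleep-deprived animals 1 to 3 lie highest for Tcim, Cdkn1a and Fkbp5, and the mean of the sleep arrays lies below the mean of the waking arrays in all 6 panels.

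Further members reached the threshold once either block entered the model: 11 genes were then higher (7.31% of all genes were with the set as a block and 6.52% with the animal number) and 1, Nr3c1, was lower. Tsc22d3, also called GILZ, which carries anti-inflammatory effects of the receptor, ranged from 11.35 to 12.65 (median 12.25) in the sleep-deprived arrays and from 11.11 to 11.88 (median 11.44) in the waking arrays, an overlapping difference of 0.71 ± 0.22 (SE) with an adjusted p of 0.0608 without a block and 0.002 with the set as one. Zbtb16, a zinc finger repressor, had a difference of 1.19 with an adjusted p of 0.0598, and 0.0357 with the set as a block. Klf9, a Krüppel-like factor that the receptor induces, ranged from 12.87 to 13.11 (median 13.00) in the sleep-deprived arrays and from 12.69 to 12.83 (median 12.74) in the waking arrays. These ranges did not overlap, yet its difference of 0.25 ± 0.07 (SE) had an adjusted p of 0.051, and 0.0142 with the block. Arrdc2 and Per1 were the other 2, at 0.99 and 0.70. The receptor gene itself, Nr3c1, had a difference of -0.38, with an adjusted p of 0.145 without and 0.0179 with the set as a block. Several much-used targets did not pass in any of these fits: Sgk1, a kinase that controls ion channels, stood at 0.47 (adjusted p = 0.532), Mt1 and Mt2, the metallothioneins, at 0.07 and 0.18, and Ddit4, an inhibitor of mTOR, at 0.01.

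The 250 bases before the start sites of these genes were searched in RefSeq's promoter windows (GRCm38.p6) on both strands for the glucocorticoid response element (GNACA and TGTNC with 3 bases between them), the E-box CACGTG bound by clock and other basic helix-loop-helix proteins, and the cyclic AMP core site TGACG. The core site lies within the full element TGACGTCA. Of the 6 glucocorticoid-list genes called, 5 have a window, with 6 windows in all. None held the glucocorticoid element, which occurs in 0.387% of all 32851 windows. At that share its absence from 6 windows says little about these genes. The element was found before Sgk1, Mt1 and Map3k6, list members that were not called, and before Txnip, a called gene outside the list. An E-box, present in 6.02% of all windows, was found in 2 of the 5 called list genes with a window, Fkbp5 and Klf15. Both are printed here because they are the 2 called genes of the list with an E-box; capitals mark the E-boxes and, in Klf15, the cyclic AMP core sites. The Fkbp5 window lies at chr17:28486150-28486399, minus strand, with its E-box 169 to 164 bases before the start, and the Klf15 window at chr6:90462326-90462575, plus strand, with E-boxes starting 228 and 172 bases before the start.
Fkbp5: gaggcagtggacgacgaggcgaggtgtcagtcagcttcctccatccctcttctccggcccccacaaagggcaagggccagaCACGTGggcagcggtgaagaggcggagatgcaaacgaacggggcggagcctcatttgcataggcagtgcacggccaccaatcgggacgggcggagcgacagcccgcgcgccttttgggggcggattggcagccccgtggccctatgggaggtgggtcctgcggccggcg
Klf15: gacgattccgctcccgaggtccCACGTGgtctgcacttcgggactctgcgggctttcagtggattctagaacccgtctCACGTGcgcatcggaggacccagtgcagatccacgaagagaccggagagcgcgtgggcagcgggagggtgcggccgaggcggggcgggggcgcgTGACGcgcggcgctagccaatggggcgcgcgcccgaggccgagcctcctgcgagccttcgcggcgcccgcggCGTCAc
These are matches of letters and not measured binding sites.

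Other higher genes at or above the median level were Emd, Lmo7, Dapk2, Fscn1, Wdr47, Crem, Sik1 and Pde4d, each picked by size or after its values were seen. Emd encodes emerin, a protein of the inner nuclear membrane. It ranged from 10.86 to 11.67 (median 11.15) in the sleep-deprived arrays and from 9.17 to 9.74 (median 9.60) in the waking arrays, so that the groups lay well apart at their nearest arrays, and the difference was 1.72 ± 0.15 (SE), 3.3-fold (adjusted p = 5.32e-06). In animals 1 to 3 it was 1.79 and in animals 4 to 6 1.65. Lmo7, a LIM domain protein known to bind emerin, ranged from 8.16 to 8.75 (median 8.42) in the sleep-deprived arrays and from 6.26 to 7.64 (median 7.05) in the waking arrays, without overlap, a difference of 1.41 ± 0.22 (SE) (adjusted p = 0.000588).

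Dapk2, a kinase activated by calcium and calmodulin, ranged from 7.00 to 7.43 (median 7.27) in the sleep-deprived arrays and from 5.16 to 6.32 (median 5.63) in the waking arrays. No array overlapped, and the difference was 1.54 ± 0.22 (SE), 2.91-fold (adjusted p = 0.000272). Fscn1, which encodes fascin, the protein that bundles actin filaments in cell protrusions, ranged from 10.34 to 11.03 (median 10.68) in the sleep-deprived arrays and from 8.99 to 9.76 (median 9.61) in the waking arrays, a difference of 1.18 ± 0.19 (SE) without overlap (adjusted p = 0.00066) that was 1.19 in animals 1 to 3 and 1.17 in animals 4 to 6. Wdr47, a WD repeat protein of the microtubule cytoskeleton, ranged from 8.50 to 8.67 (median 8.63) in the sleep-deprived arrays and from 6.68 to 7.91 (median 7.47) in the waking arrays, a difference of 1.19 ± 0.17 (SE) (adjusted p = 0.00028). The sleep-deprived arrays of Wdr47 lay close together and all above the highest waking array. Another probe set of Wdr47 had a difference of -0.23.

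Crem encodes a cyclic AMP-responsive activator and repressor that includes the fast repressor ICER. It ranged from 8.79 to 9.50 (median 9.21) in the sleep-deprived arrays and from 7.997 to 8.45 (median 8.11) in the waking arrays, again with no overlap, and its difference was 0.97 ± 0.15 (SE), 1.96-fold (adjusted p = 0.000543), 0.90 in animals 1 to 3 and 1.03 in animals 4 to 6. Sik1, a kinase that CREB induces and that then holds back CREB's coactivators, ranged from 8.53 to 9.07 (median 8.79) in the sleep-deprived arrays and from 7.57 to 8.33 (median 8.01) in the waking arrays, a difference of 0.81 ± 0.15 (SE) without overlap (adjusted p = 0.00233). Pde4d, an enzyme that degrades cyclic AMP, ranged from 8.68 to 9.16 (median 8.81) in the sleep-deprived arrays and from 7.97 to 8.70 (median 8.12) in the waking arrays, with a slight overlap and a difference of 0.63 ± 0.14 (SE) (adjusted p = 0.00854). For Crem and Sik1, another probe set of the same gene went slightly the other way, at -0.29 and -0.03.

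Eprs, the glutamyl-prolyl-tRNA synthetase, ranged from 9.95 to 10.59 (median 10.25) in the sleep-deprived arrays and from 9.27 to 9.56 (median 9.38) in the waking arrays, a difference of 0.86 ± 0.11 (SE) without overlap (adjusted p = 0.000112). Ppfia3, which encodes liprin-alpha-3, a scaffold known from presynaptic active zones, ranged from 6.53 to 7.22 (median 6.94) in the sleep-deprived arrays and from 5.54 to 6.01 (median 5.81) in the waking arrays. Its difference of 1.12 ± 0.11 (SE) had an adjusted p of 9.96e-06, and the sleep arrays, at 6.89 to 7.15, lay with the sleep-deprived ones. Fscn1, Emd, Eprs, Crem, Ppfia3 and Dapk2 were the 6 genes at or above the median level that kept their call under every one of the alternatives except the test against 1.5-fold, which only Emd passed. All alternatives start from the same deposited values and the same animals. None could undo a shift between groups made before deposit, so keeping a call is no separate support.

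Cebpa, a transcription factor of differentiation and metabolism, ranged from 8.48 to 9.93 (median 9.42) in the sleep-deprived arrays and from 7.88 to 8.58 (median 8.23) in the waking arrays, and its difference was 1.09 ± 0.23 (SE) (adjusted p = 0.00716). The highest waking array of Cebpa reached just into the sleep-deprived range. Pim3, a serine/threonine kinase, ranged from 11.09 to 11.62 (median 11.44) in the sleep-deprived arrays and from 9.77 to 11.08 (median 10.50) in the waking arrays, without overlap and with a difference of 0.94 ± 0.19 (SE) (adjusted p = 0.00531). Furin, the protease that matures many secreted precursors, had a difference of 0.90 (adjusted p = 0.00351), Gbp6, an interferon-inducible GTPase, of 1.38 (adjusted p = 0.00738), and Lamb1, the laminin beta-1 chain, of 1.19 (adjusted p = 0.0149). Fam43a stood at 1.26 (adjusted p = 0.00231).

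Il13ra1, a subunit of the interleukin-13 receptor, stood at 1.30 (adjusted p = 0.0205), but another of its probe sets had a difference of -0.59. Nrros, which regulates the release of TGF-beta, Tbc1d30, a Rab GTPase-activating protein, and Txnip, the thioredoxin-interacting protein, stood at 1.66, 1.24 and 0.95 with adjusted p of 0.0462, 0.044 and 0.0443. Leaving out 1 array ended these last 3 calls in 10, 9 and 8 of 12 fits, with adjusted p up to 0.106, 0.102 and 0.101.

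**Figure D3:**
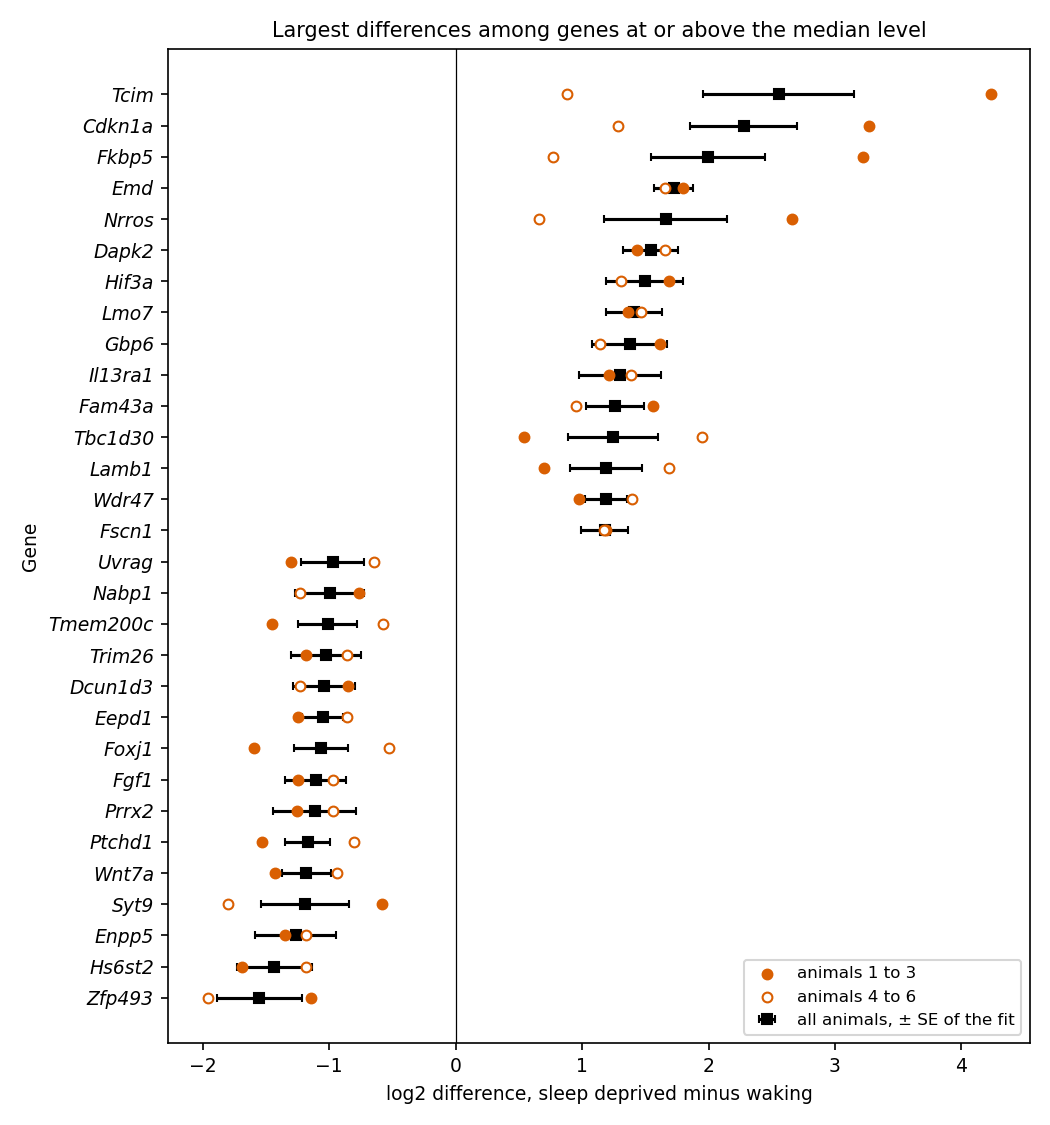
Log2 differences, sleep deprived minus waking, of the 15 genes with the largest higher and the 15 with the largest lower differences among called genes at or above the median level. Squares with bars are the fit over all animals ± SE, filled circles animals 1 to 3 and open circles animals 4 to 6. Both sets lie on the same side of 0 for every gene, which largely follows from calling the genes on these same animals. The sets lie farthest apart for Tcim, Cdkn1a, Fkbp5 and Nrros.

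Lower genes at or above the median level included Fgf1, Wnt7a, Sox2, Sox21, Hdac1 and Foxj1, each picked by size or after its values were seen. Fgf1, a fibroblast growth factor that was abundant in the bound fraction, ranged from 9.44 to 11.22 (median 11.00) in the sleep-deprived arrays and from 11.81 to 11.91 (median 11.87) in the waking arrays. The waking arrays were nearly equal and all lay above the highest sleep-deprived array, while sleep-deprived animal 3 stood well below the other 5; the level fell by 1.11 ± 0.24 (SE) on the log2 scale (adjusted p = 0.00784). Wnt7a, a secreted Wnt ligand, ranged from 7.75 to 8.63 (median 7.99) in the sleep-deprived arrays and from 9.07 to 9.67 (median 9.28) in the waking arrays, without overlap, and fell by 1.18 ± 0.19 (adjusted p = 0.000931). Another probe set of Wnt7a had a difference of 0.14.

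Sox2 and Sox21, transcription factors of neural progenitors that astrocytes also express, fell by 0.45 and 0.53 (adjusted p = 0.0391 and 0.0313). Sox21 ranged from 10.70 to 11.51 (median 11.18) in the sleep-deprived arrays and from 11.61 to 11.76 (median 11.67) in the waking arrays, without overlap, whereas the Sox2 ranges overlapped through waking animal 3. Leaving out 1 array ended the call on Sox2 in 8 and that on Sox21 in 7 of 12 fits, with adjusted p up to 0.0897 and 0.0726. Hdac1, a histone deacetylase, ranged from 8.52 to 9.50 (median 9.24) in the sleep-deprived arrays and from 9.68 to 10.06 (median 9.81) in the waking arrays, and fell by 0.72 ± 0.16 with no overlap (adjusted p = 0.00846). Foxj1, the transcription factor of motile cilia, fell by 1.06 (adjusted p = 0.00461), by 1.59 in animals 1 to 3 and by 0.53 in animals 4 to 6.

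Ptchd1, a patched-domain membrane protein, ranged from 4.91 to 6.39 (median 5.78) in the sleep-deprived arrays and from 6.67 to 7.09 (median 6.88) in the waking arrays, and fell by 1.17 ± 0.18 without overlap (adjusted p = 0.000502); its sleep arrays, at 5.30 to 5.73, lay with the sleep-deprived ones. Eepd1 ranged from 6.20 to 7.02 (median 6.76) in the sleep-deprived arrays and from 7.54 to 7.97 (median 7.78) in the waking arrays, likewise apart, and fell by 1.05 ± 0.16 (adjusted p = 0.00058). Hs6st2, an enzyme that sulphates heparan chains, ranged from 4.81 to 6.06 (median 5.65) in the sleep-deprived arrays and from 6.53 to 8.05 (median 6.91) in the waking arrays and fell by 1.44 (adjusted p = 0.00553). Its groups did not overlap, but with its probe sets averaged the adjusted p was 0.455, as it was 0.425 for Ptchd1. Zfp493, a zinc finger protein, had the largest fall among the brighter genes, 1.55 (adjusted p = 0.00724). Dcun1d3, which acts in neddylation, and Uvrag, an autophagy protein, fell by 1.04 and 0.97, and Tmem200c by 1.01 (adjusted p = 0.0134, 0.0224 and 0.0114). The call on Uvrag was lost without waking animal 4 (adjusted p = 0.0543).

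The other 5 genes of the 15 largest falls, Enpp5, Syt9, Prrx2, Trim26 and Nabp1, had overlapping arrays and differences of -0.996 to -1.26. Each of them lost its call in 4 to 9 of 12 fits that left out 1 array. When the dim genes were left out before the adjustment, 17 of the 30 genes plotted by size kept an adjusted p under 0.05, and Tcim, for one, stood at 0.063.

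Without regard to level, the 15 largest higher differences added Ankrd44, Znf41-ps, Tll1, Lrrc52, Colec10, Zdhhc15 and Ccdc175, all with mean levels below the median. Ccdc175 ranged from 4.32 to 4.66 (median 4.46) in the sleep-deprived arrays and from 2.91 to 3.19 (median 3.07) in the waking arrays, groups that were narrow and wide apart, with a difference of 1.39 ± 0.09 (SE) (adjusted p = 2.95e-07). Colec10, a collagenous lectin, ranged from 3.86 to 4.67 (median 4.39) in the sleep-deprived arrays and from 2.44 to 3.29 (median 2.69) in the waking arrays, a difference of 1.57 ± 0.16 (SE) (adjusted p = 1.13e-05). Ankrd44, Znf41-ps, Tll1, Lrrc52 and Zdhhc15 stood at 2.08, 1.79, 1.72, 1.63 and 1.45. Another probe set of Ankrd44 had a difference of -0.07, and the call on Zdhhc15 was lost in 7 of 12 fits without 1 array, with an adjusted p up to 0.084. No detection call comes with the deposited values, so whether these probe sets lay above background was not tested.

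On the lower side, 12 of the 15 largest falls were dim: Snai2, Gnat2, Vegfd, Pcsk5, Slc35d3, Cpne4, AW551984, Zbtb37, Tfap4, Smoc2, BC031361 and Cdr1os, with differences of -1.24 to -1.70. Gnat2, a transducin subunit of cone photoreceptors, ranged from 2.96 to 3.53 (median 3.02) in the sleep-deprived arrays and from 4.29 to 5.05 (median 4.66) in the waking arrays, a fall of 1.55 ± 0.17 with no overlap (adjusted p = 3.08e-05). Smoc2, a matrix protein that binds calcium, ranged from 3.43 to 4.73 (median 4.06) in the sleep-deprived arrays and from 5.07 to 5.58 (median 5.43) in the waking arrays, and fell by 1.27 ± 0.20, also without overlap (adjusted p = 0.000631). Snai2, a zinc finger repressor of cell adhesion genes, fell by 1.70 with an adjusted p of 0.0426 that rose to 0.0621 with the animal number as a block. The calls on Snai2, Pcsk5, Slc35d3 and Tfap4 were lost in 11, 11, 9 and 7 of 12 fits without 1 array, with adjusted p up to 0.0961, 0.109, 0.103 and 0.0702. The call on Vegfd was lost without waking animal 5 or sleep-deprived animal 1 (adjusted p up to 0.0595).

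Immediate early genes, which neurons and astrocytes switch on within minutes of stimulation, were also compared between forced and spontaneous wake. Of 32 measured, 2 were higher (4.17% of all genes were) and none was lower. Of the 32, 28 lay at or above the median level, where 1.51% of genes were higher. The median difference was 0.33, with 27 of 32 above 0. Between the fractions, 10 of the 32 were higher in bound than in unbound RNA (37.6% of all genes were) and 14 were lower (25.7%). What part of the bound signal of this list comes from RNA of other cells was not tested. Fosb, a partner of JUN in AP-1, ranged from 6.92 to 8.46 (median 7.44) in the sleep-deprived arrays and from 6.12 to 6.93 (median 6.45) in the waking arrays. The highest waking array just passed the lowest sleep-deprived one, and the difference was 1.04 ± 0.29 (SE), 2.05-fold (adjusted p = 0.036). Maff, a small MAF transcription factor, ranged from 7.75 to 8.91 (median 8.11) in the sleep-deprived arrays and from 6.91 to 7.87 (median 7.41) in the waking arrays, with a similar slight overlap and a difference of 0.82 ± 0.23 (SE) (adjusted p = 0.04). Each of these calls was lost in 9 of 12 fits that left out 1 array, with adjusted p up to 0.0789 and 0.0877.

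The most used markers of the family did not pass. Fos ranged from 7.99 to 9.44 (median 8.29) in the sleep-deprived arrays and from 7.92 to 9.06 (median 8.49) in the waking arrays, ranges that lay on top of each other, with a difference of 0.02 ± 0.26 (SE). Egr1 stood at 0.05 ± 0.32, Arc, the activity-regulated synaptic gene, at 0.40 ± 0.34 and Nr4a1 at 0.42 ± 0.27, with adjusted p of 0.978, 0.64 and 0.468. Egr3, another early growth response factor, stood at 0.84 ± 0.28 (adjusted p = 0.0885). With the set of animals as a block, 7 members were higher (7.31% of all genes were) and 2, Jund and Npas4, were lower; with the animal number as a block, 5 were higher (6.52%) and 2 lower. The added higher genes with the set as a block were Egr3, Nr4a3, Dusp6, Homer1 and Klf10, with differences of 0.84, 0.62, 0.44, 0.50 and 0.58. The median over the list was 0.48 in animals 1 to 3 and 0.10 in animals 4 to 6.

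The 2 called genes have 4 RefSeq windows, 1 for Fosb and 3 for Maff. The cyclic AMP core site TGACG was in 3 of the 4, with 1 Maff window lacking it, and occurs in 17.8% of all windows. Fosb and Maff are printed because they are the called genes of this list. Capitals mark the core sites and, in Maff, an E-box. The Fosb window lies at chr7:19310046-19310295, minus strand, with its core site 60 to 56 bases before the start. The Maff window shown, the second of its 3 start sites, lies at chr15:79347270-79347519, plus strand. Its 2 overlapping core sites, on opposite strands, make up the full element TGACGTCA. That element is found in 1 of the 4 windows, the one shown, and in 1.55% of all windows.
Fosb: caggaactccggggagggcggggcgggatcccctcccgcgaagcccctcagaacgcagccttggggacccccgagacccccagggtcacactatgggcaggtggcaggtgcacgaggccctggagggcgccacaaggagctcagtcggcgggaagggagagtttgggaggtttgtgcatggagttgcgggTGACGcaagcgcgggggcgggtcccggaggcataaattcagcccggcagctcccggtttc
Maff: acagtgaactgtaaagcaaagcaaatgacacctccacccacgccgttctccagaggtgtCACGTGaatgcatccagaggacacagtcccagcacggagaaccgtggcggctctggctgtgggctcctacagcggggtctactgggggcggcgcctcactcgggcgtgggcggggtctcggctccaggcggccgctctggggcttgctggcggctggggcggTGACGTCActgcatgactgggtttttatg
As before, these are letters only. None of the 4 windows held the glucocorticoid or the serum response element. These occur in 0.387% and 0.0609% of all windows, so their absence here says little. The GC box was in 3 of the 4 and in 32.7% of all windows.

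No clock gene passed in the fit without a block. None of 15 measured clock repressors and output genes and none of 7 activators and opposite-phase genes passed the threshold, with 4.17% of all genes higher and 2.67% lower. All of these members lay at or above the median level, where 1.51% of genes were higher and 0.681% lower. Per1, a period repressor that light and glucocorticoids also induce, ranged from 9.30 to 10.52 (median 9.92) in the sleep-deprived arrays and from 8.07 to 10.18 (median 9.17) in the waking arrays. The sets of animals lay far apart in both groups, and the difference was 0.70 ± 0.38 (SE) (adjusted p = 0.357). Nr1d1, the REV-ERB alpha repressor, ranged from 10.87 to 12.03 (median 11.39) in the sleep-deprived arrays and from 9.89 to 11.53 (median 10.85) in the waking arrays, with a difference of 0.61 ± 0.34 (SE) (adjusted p = 0.371). Within the sets, Nr1d1 was higher by 0.46 in animals 1 to 3 and by 0.76 in animals 4 to 6, and no array overlapped within either set. With the set as a block 3 of the 15 repressors and output genes were higher (7.31% of all genes were), Per1 (adjusted p = 0.028), Nr1d1 (adjusted p = 0.000327) and Usp2, a deubiquitinase driven by the clock (adjusted p = 0.012), and the count was also 3 with the animal number as a block (6.52% of all genes were higher).

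Other members did not pass with either block. Per2 had a difference of 0.41 ± 0.17 (adjusted p = 0.184) and Per3 of -0.45 ± 0.17 (adjusted p = 0.143). Dbp, a direct clock output, ranged from 11.37 to 12.38 (median 11.68) in the sleep-deprived arrays and from 11.76 to 12.49 (median 11.79) in the waking arrays, with a difference of -0.11 ± 0.17 (SE), while the sleep arrays of Dbp, at 12.66 to 12.86, lay above all of them. Ciart, a repressor of CLOCK and BMAL1, stood at 6.73 ± 0.70 (SD, n = 6) after sleep deprivation, 6.27 ± 0.72 in waking and 8.01 on average in sleep. Its difference of 0.47 had an adjusted p of 0.682. Arntl, which encodes BMAL1, and Npas2, its partner, had differences of 0.07 and 0.44 (adjusted p = 0.934 and 0.155).

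**Figure D4:**
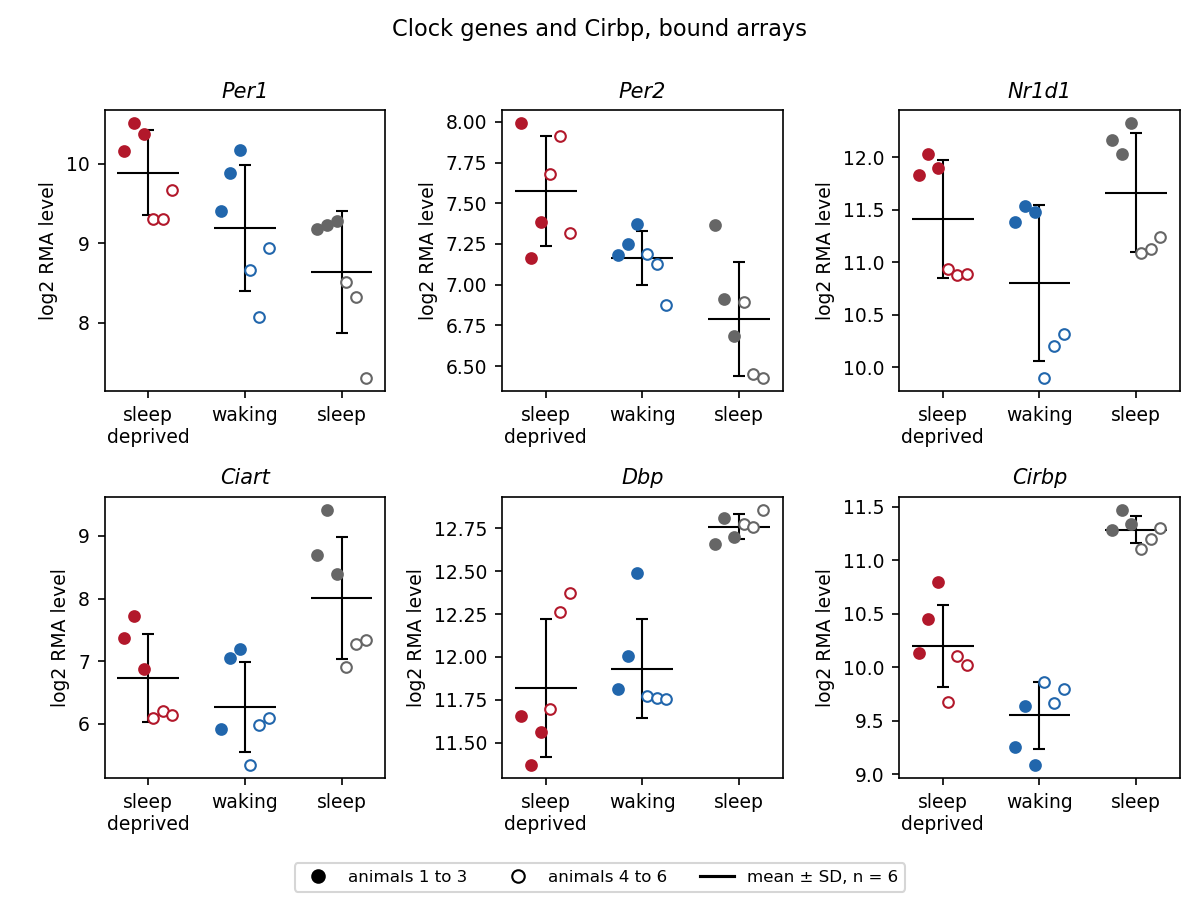
Log2 RMA levels of 5 clock genes and Cirbp by state, with 1 point per animal (filled for animals 1 to 3, open for animals 4 to 6) and the mean ± SD over 6 animals. The 2 sets of animals separate within each state for Per1 and Nr1d1, and the sleep arrays of Dbp and Cirbp lie above all sleep-deprived and waking arrays.

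Cirbp, the cold-inducible RNA-binding protein, whose transcript falls as brain temperature rises, was the 1 called gene among 3 measured on its list. It ranged from 9.68 to 10.79 (median 10.12) in the sleep-deprived arrays and from 9.08 to 9.86 (median 9.65) in the waking arrays, ranges that overlapped, and was higher by 0.65 ± 0.17 (SE) after sleep deprivation (adjusted p = 0.0248). The difference was 1.13 in animals 1 to 3 and 0.16 in animals 4 to 6. The call was lost without waking animal 1 or 3 or sleep-deprived animal 2 or 3, with an adjusted p up to 0.0593. All 6 sleep arrays lay above both groups, at 11.10 to 11.47. None of 11 splicing factors of the SR family passed, with a median difference of 0.15, and Srsf3 stood at 0.52 (adjusted p = 0.137).

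The other lists held at most 1 called gene each, to be read against the 4.17% of all genes that were higher and the 2.67% that were lower. Most of their members lay at or above the median level, where these shares were 1.51% and 0.681%. Of 22 genes of cholesterol synthesis and its control, 1, Pmvk, was higher and none was lower. Pmvk, phosphomevalonate kinase of the mevalonate pathway, ranged from 11.94 to 12.38 (median 12.25) in the sleep-deprived arrays and from 11.42 to 11.88 (median 11.54) in the waking arrays, groups without overlap, with a difference of 0.62 ± 0.10 (SE), 1.54-fold (adjusted p = 0.000818). It was 0.72 in animals 1 to 3 and 0.53 in animals 4 to 6, and the call held in all 12 fits without 1 array. The median of the whole list was 0.05. Of 16 glycogen genes, 1, Ugp2, was lower (2.67% of all genes were) and none was higher. Ugp2, the enzyme that makes UDP-glucose for glycogen synthesis, ranged from 11.42 to 11.57 (median 11.45) in the sleep-deprived arrays and from 11.61 to 11.93 (median 11.77) in the waking arrays, without overlap, and fell by 0.31 ± 0.09 (adjusted p = 0.0473); that call was lost in 11 of 12 fits without 1 array and, with its probe sets averaged, had an adjusted p of 0.522.

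Dio2, the deiodinase with which astrocytes activate thyroid hormone, was the 1 gene higher among 11 of adenosine, adrenergic and thyroid signalling. It ranged from 12.53 to 12.96 (median 12.72) in the sleep-deprived arrays and from 11.90 to 12.55 (median 12.29) in the waking arrays, with a narrow overlap and a difference of 0.47 ± 0.14 (SE) (adjusted p = 0.0441). This call was lost in 8 of 12 fits without 1 array (adjusted p up to 0.0992) and stood at 0.063 with arrays centred on their medians. Hspb8, a small heat shock protein, was the 1 gene higher of 22 chaperones, at 0.33 ± 0.09 (adjusted p = 0.0398), and was likewise lost in 10 of 12 such fits and with the probe sets averaged (adjusted p = 0.428). Rnd3, a GTPase that loosens actin stress fibres, was the 1 gene lower of 30 genes of actin and process motility. It ranged from 8.60 to 9.25 (median 8.99) in the sleep-deprived arrays and from 9.13 to 9.75 (median 9.52) in the waking arrays and fell by 0.59 ± 0.15 (adjusted p = 0.0221), with a small overlap; without waking animal 2 or 5 or sleep-deprived animal 3 or 4 the adjusted p rose to as much as 0.0538.

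No gene passed among 20 chaperones of the endoplasmic reticulum, 23 genes of fatty acid oxidation, ketones and lipid droplets, 19 of glycolysis and the lactate shuttle, 16 of potassium, water, pH and gap junctions, 11 of glutamate and GABA handling, 14 of FGF receptor feedback, 16 antioxidant genes and metallothioneins, or 10 ribosomal proteins. Their median differences lay between -0.06 and 0.04, beside 0.02 for all genes. The 1 called gene among 14 hypoxia genes was Hif3a and the 1 among 16 of NF-kappa-B and innate immunity was Nfkbia, both described above.

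**Figure D5:**
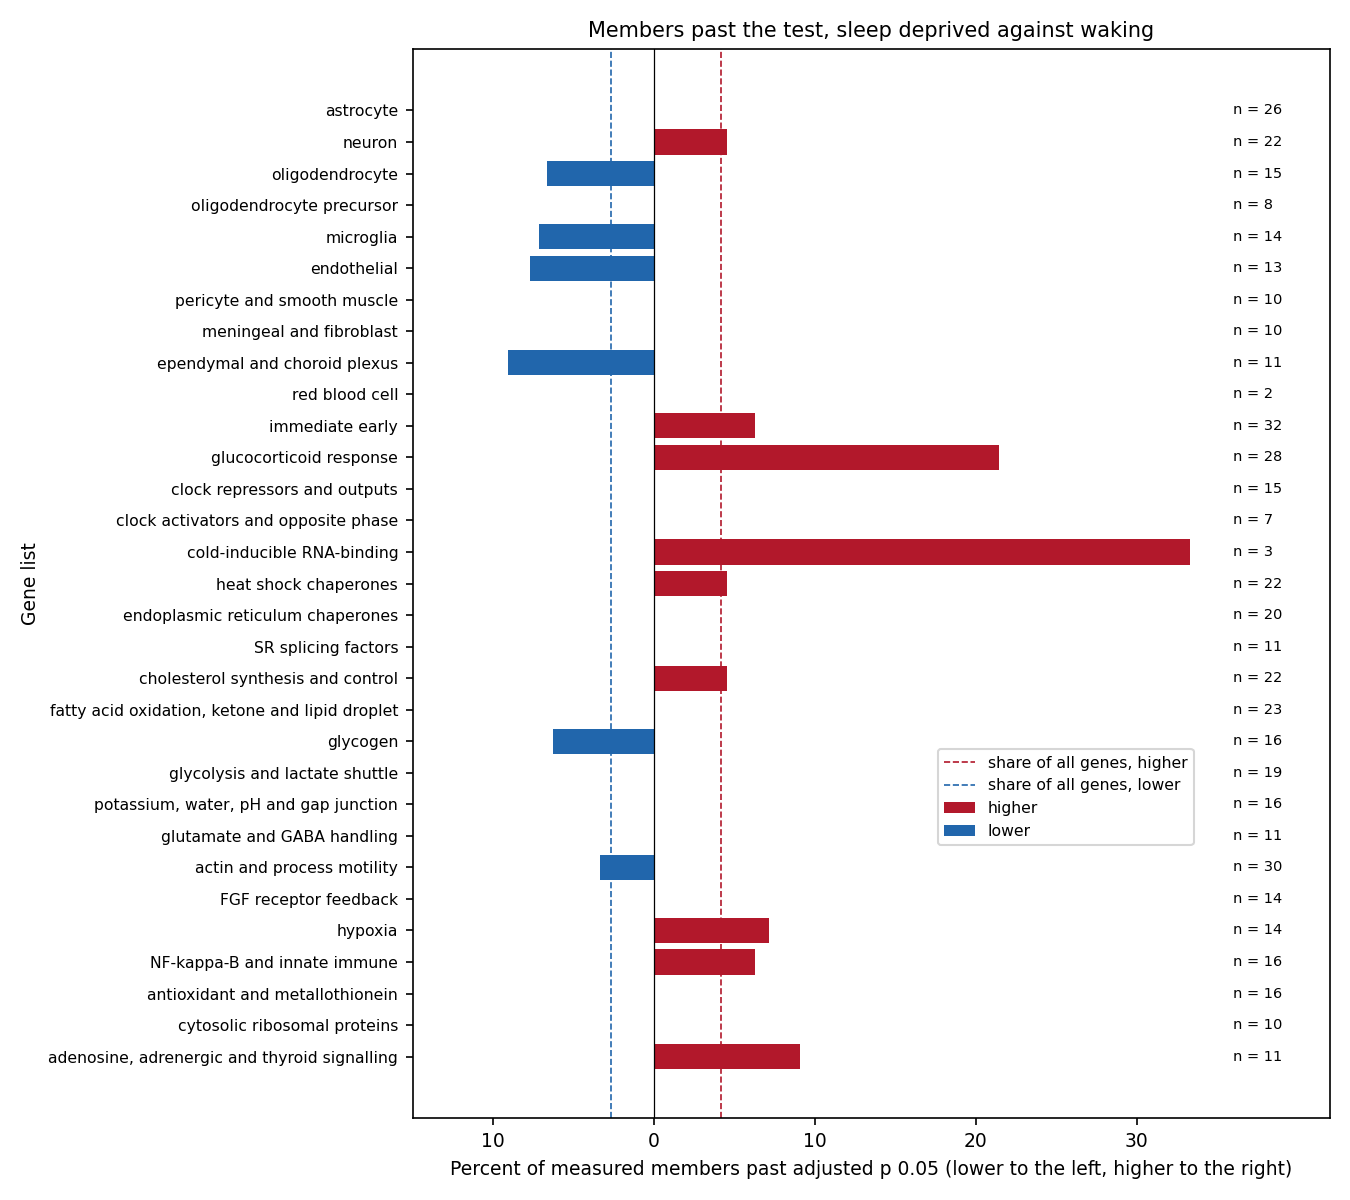
Share of measured members of each gene list past the adjusted p threshold, in percent, with higher members to the right in red and lower members to the left in blue; n is the number measured and the dashed lines are the shares of all genes, 4.17% higher and 2.67% lower. The glucocorticoid list has 6 of 28 members higher, or 4 of 26 without Tcim and Hif3a. Those 2 were put on it because they were high in these data. The cold-inducible list, with 1 of 3, has the longest bar from a single gene. At or above the median level, where most members of most lists lay, 1.51% of genes were higher and 0.681% lower.

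The marker lists of other cell types held at most 1 called gene each, with 4.17% of all genes higher and 2.67% lower. At or above the median level these shares were 1.51% and 0.681%. Syn1, a synaptic vesicle protein, was the 1 called of 22 neuronal markers and was higher by 0.62 ± 0.18 (SE) (adjusted p = 0.0472), while the list's mean level was 9.43 to 9.87 in the sleep-deprived and 9.44 to 9.89 in the waking arrays. Leaving out 1 array ended that call in 10 of 12 fits (adjusted p up to 0.105). Ermn, a myelin-associated actin protein, was the 1 lower of 15 oligodendrocyte markers, Tmem119 the 1 of 14 microglial markers and Esam, an endothelial adhesion protein, the 1 of 13 endothelial markers. They fell by 0.90, 0.96 and 0.74 (adjusted p = 0.0403, 0.0259 and 0.0402), and the calls were lost in 8, 3 and 7 of 12 fits without 1 array. In the bound fraction, 10 of the 15 oligodendrocyte, 6 of the 14 microglial and 2 of the 13 endothelial markers were lower than in the unbound fraction (25.7% of all genes were). The counts of higher ones were 3, 2 and 2 (37.6% of all genes). In bound RNA, fewer cells of a type, less RNA per cell and less RNA carried over from other cells cannot be told apart.

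The mean level of 11 ependymal and choroid plexus markers was 5.79 to 8.45 in the sleep-deprived and 5.72 to 8.45 in the waking arrays. This is the widest spread of any cell type list, and its median difference was -1.59 in animals 1 to 3 and 0.31 in animals 4 to 6. Foxj1, the cilia factor, was its 1 called gene, and the part of ependymal or choroid plexus tissue in it was not tested. The mean of 14 microglial markers was 5.86 to 6.70 after sleep deprivation and 6.35 to 6.62 in waking. No gene passed among 10 markers of pericytes and smooth muscle, 10 of meninges and fibroblasts, 8 of oligodendrocyte precursors and 2 of red blood cells.

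In the unbound fraction, with 2 pools for each state, 44 genes (0.242%) were higher and 94 (0.517%) lower after sleep deprivation than in waking, and none remained with the pool number as a block or without any 1 of the 4 pools. The median unbound difference over all genes was -0.12, and with arrays centred on their medians 7 genes were higher and 4 lower. At an unadjusted p under 0.05 the count was 3818 without and 3824 with the block. None of the glucocorticoid-list genes passed there. Fkbp5 was 8.87 and 8.62 in the sleep-deprived pools and 8.28 and 8.35 in the waking pools, and Cdkn1a was 9.64 and 9.68 in the sleep-deprived pools and 8.93 and 8.99 in the waking pools, so that in both the sleep-deprived pools lay above the waking ones. The difference of the differences, bound minus unbound, was 1.56 ± 0.83 (SE, adjusted p = 0.37) for Fkbp5 and 1.58 ± 0.78 (SE, adjusted p = 0.319) for Cdkn1a, neither past the threshold. Hif3a was low in the unbound pools, at 5.84 and 6.15 in the sleep-deprived pools and 6.17 and 5.14 in the waking pools. Fosb was 7.87 and 8.19 in the sleep-deprived pools and 6.42 and 7.71 in the waking pools.

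Between the fractions, the difference of differences passed for 934 genes (5.13%), where the median over all genes was 0.15. Emd, at 9.42 and 9.30 in the sleep-deprived pools and 9.16 and 9.10 in the waking pools, differed in the bound fraction by 1.498 ± 0.29 (SE, adjusted p = 0.00381) more than in the unbound. Crem, which was 8.86 and 8.53 in the sleep-deprived pools and 8.88 and 9.27 in the waking pools, had a difference of 1.34 ± 0.29 (SE, adjusted p = 0.00758), Fscn1 of 1.44 ± 0.36 (SE, adjusted p = 0.0228), Eprs of 0.96 ± 0.21 (SE, adjusted p = 0.00836) and Ppfia3 of 1.20 ± 0.22 (SE, adjusted p = 0.00223). For Crem neither sleep-deprived pool lay above both waking pools. When each pool was instead subtracted from the mean of its own 3 animals, no gene passed, with 2095 at an unadjusted p under 0.05, and with the set as a block in each fraction 1760 did.

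The 6 sleep arrays entered the comparison above through the estimate of the spread, the mean level that separates dim from brighter genes and the choice of probe set. Their medians over all probe sets, 5.65 to 5.73, all lay below those of the sleep-deprived and waking arrays. Among the 175 brighter genes higher after sleep deprivation than in waking, the mean of the sleep arrays lay below both groups in 61, between them in 110 and above both in 4. Among the 79 lower genes it lay below both in 13, between in 58 and above both in 8. With arrays centred on their medians, an alternative chosen after seeing the data, the counts were 46, 117 and 12 for the higher genes and 10, 59 and 10 for the lower genes, in the same order. Fkbp5, Cdkn1a and Tcim belonged to those with sleep lowest: their sleep means were 6.54, 7.82 and 4.92, the waking means 7.52, 8.46 and 6.08 and the sleep-deprived means 9.52, 10.74 and 8.63. Emd, Lmo7 and Fgf1 had sleep means of 9.65, 7.25 and 11.44, between the means of sleep deprivation and waking. Fosb and Maff had their lowest means in sleep, at 5.27 and 5.85. These comparisons share the sleep-deprived and waking arrays and are given side by side without a test.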

How the data were processed

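Bound RNA of 18 single animals and unbound RNA of 6 pools was measured on Affymetrix mouse arrays. The deposited values are log2 levels made by the authors with RMA, per the submitters' processing notes; its version and whether groups were processed together are not given in the sources used here. Of 45101 probe sets, 34945 had 1 gene symbol in the platform annotation, 932 had several and 9160 had none; those with several or none and 64 control probe sets were left out. Symbols were updated through gene IDs where RefSeq's table held them (34741 probe sets). Each of 18193 genes was represented by its brightest probe set, judged by the mean of all 24 arrays.

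Differences were fitted with limma 3.58.1 in R 4.3.3 on the 18 bound arrays in 3 groups, with no block, and p-values were adjusted by Benjamini-Hochberg over all genes (threshold 0.05). The 6 unbound pools were fitted in the same way, and an interaction over all 24 arrays compared the fractions. The code was tested on simulated data. Genes were named by the 15 largest differences in each direction among those called (predicted and numbered transcripts skipped) and by membership of 31 lists, while the 15 largest at or above the median level, and Txnip, Sox2, Sox21, Cebpa, Furin, Crem, Sik1, Pim3, Pde4d, Ppfia3, Eprs and Hdac1, were chosen after their values were seen, as were the 10 genes past the 1.5-fold test, named to account for that count. The groups, members and lists were all chosen with earlier results of these data known. List members without a probe set of 1 symbol were not analysed here.

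Same-numbered animals of the groups deviated from their group means together, with every correlation over 0.1 (0.31 to 0.49) and at -0.09 to 0.14 with the set of animals removed. The reported fit has no block, and values with the animal number as a block are given beside it where a call or count moved. Alternatives were the arrays that set the spread, blocks, sets of animals, normalization, probe set averaging, weights, a filter on dim genes, a fold limit and leaving out each array.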

Additional observations from a re-analysis of the deposited data

Results flagged for a closer look

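In 161 genes examined in both groups of 6, 322 gene-groups in all, 17 had 1 array whose gap to its nearest neighbour exceeded Dixon's critical share of the group's range, where chance gives about 1 in 20. Log2 levels are given with the nearest level beside them. In sleep-deprived animals the highest array stood apart for Znf41-ps in animal 2 (7.14, next 5.92), AW551984 in animal 3 (3.61, next 2.62), Foxj1 in animal 5 (7.59, next 6.54) and Ugp2 in animal 4 (11.57, next 11.45). The lowest stood apart there for Fgf1 in animal 3 (9.44, next 10.70), Nr4a2 in animal 1 (8.11, next 8.96) and Nr1d2 in animal 5 (10.54, next 10.75). Among waking animals the highest stood apart for Lrrc52 in animal 3 (3.81, next 2.89), Homer1 in animal 2 (11.88, next 11.18), Atf3 in animal 4 (5.35, next 4.54) and Dbp in animal 3 (12.49, next 12.01). The lowest stood apart for Nrros in animal 6 (5.83, next 6.45), Il13ra1 in animal 4 (5.45, next 6.33), Nr3c1 in animal 3 (9.14, next 9.76), Map3k6 in animal 4 (6.20, next 6.58), Nfkbia in animal 3 (10.03, next 10.72) and Sox2 in animal 3 (11.31, next 11.78). Waking animal 3 appears 5 times in this count and waking animal 4 appears 3 times. The 17 of 322 lie close to the share that chance gives, and whether any array deviates as a whole was not tested.

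For 16 of the same 161 genes the difference of sleep deprivation against waking differed between the fractions in limma's interaction test (adjusted p under 0.05), where 5.13% of all genes did. Many of the 161 genes had been named for the size of their bound difference, which enters this test. The bound minus the unbound difference was above 0 for Ankrd44 (3.42), Znf41-ps (2.61), Emd (1.498), Lrrc52 (2.09), Colec10 (1.87), Il13ra1 (3.27), Wdr47 (1.81), Fscn1 (1.44), Dusp1 (0.92), Srsf2 (1.003), Crem (1.34), Ppfia3 (1.20) and Eprs (0.96). It was below 0 for BC031361 (-2.22), Eepd1 (-1.33) and Atf3 (-1.40). The unbound arm rests on 2 pools for each state, and none of these passed when each pool was subtracted from its own animals. For Ankrd44 and Il13ra1 the bound difference was above 0 and the unbound difference, at -1.34 and -1.97, was below 0.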

How the results depend on the processing

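Over the genes called between sleep deprivation and waking in the bound arrays, the count of higher genes was 1186 with the animal number as a replicate block and 1329 with the set of animals as a block, against 759 without. It was 338 in animals 1 to 3 only, 90 in animals 4 to 6 only, 60 with dim genes left out, 6 in the test against 1.5-fold and 307 with the set as a block and dim genes left out, an alternative chosen after seeing the data. The count of lower genes, 485, moved to 835, 247, 53, 16, 4 and 143 in the set-block, animals 1 to 3, animals 4 to 6, dim genes, 1.5-fold and combined settings, and was 727 with the animal number as a block. Leaving out 1 array gave 598 to 742 higher and 375 to 424 lower genes. Some of these settings hold fewer animals or genes, and otherwise the cause was not tested. The other settings, the spread from 12 or 24 arrays, probe sets averaged, quantile normalization repeated, arrays centred, intensity trend and array weights, kept both counts within 1.5 times.

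Same-numbered animals of the 2 groups deviated together, with correlations of 0.31 to 0.49, but with the set of animals removed these were -0.09 to 0.14, and 3 of 6 animals matched their own number best. Of the 1244 calls, 1226 remained with the animal number as a block and 1244 with the set as one; beside the values given in the text, Snai2 was the named gene that lost its call with the number. The unbound count of 138 became 0 with the pool number as a block, 11 with arrays centred and 0 without each 1 of the 4 pools, where a lone pool is assumed to vary like the others. The count between fractions, 934, became 0 with pools subtracted from their animals and 1760 with the set as a replicate block; centred arrays gave 697. The test between the sets of animals called 0 genes in limma in all 3 settings run, with 1061 at an unadjusted p under 0.05 and a smallest adjusted p of 0.0758. One named gene reversed: Slc1a3, a glutamate transporter, stood at -0.04 (adjusted p = 0.892) on its brightest probe set and at 0.32 with probe sets averaged (adjusted p = 0.0254). Array values carry no detection call or background level here, and 6 animals for each group limit the precision.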

Other observations

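Of the 12 arrays compared, animals 4 to 6 differed from animals 1 to 3 in 5612 of 18193 genes at an adjusted p under 0.05 in limma, in a fit that did not separate sleep deprivation from waking. Per1, the period repressor, and Nr1d1, a nuclear receptor of the clock, were split by set without overlap in both states.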
